A study of Mus musculus with 18 samples.

Results

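The cytosolic ribosomal protein genes were described in the open chromatin of liver macrophages (LMs). The members were the protein-coding genes with more than 1 exon on chromosomes 1 to 19 whose symbol begins with Rpl or Rps and a digit, or is Rpsa, Rplp0, Rplp1, or Rplp2, without the Rps6k kinases. This rule uses gene symbols of GENCODE on NCBIM37, the assembly behind mm9, and no measured value. It found 79 of 18685 multi-exon coding genes. They were 39 genes of the large subunit, 30 of the small subunit with Rpsa, the 3 genes of the P-stalk, 6 paralogs (Rpl3l, Rpl7l1, Rpl22l1, Rpl36al, Rpl39l, and Rps27l), and Rps19bp1, which the symbol takes in although its product binds a ribosomal protein and is not part of the ribosome.

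LMs came from male C57BL/6J mice that carried floxed alleles of Rev-erbα and Rev-erbβ (Reverb-hDKO), or of both and Scap (Reverb/Scap-hTKO), and had been injected at 8 weeks of age with AAV-TBG-CRE. Control mice had received AAV-TBG-GFP, and the labels do not say which floxed alleles these carried. The TBG promoter is active in hepatocytes, so the genes were deleted in hepatocytes and not in the LMs that were measured. All groups were fed the high-fat, high-sucrose diet (HFHSD) for 4 weeks, and LMs, whose library titles name Kupffer cells (KCs), were taken at ZT10 or ZT22, giving 3 replicates for each combination of the 3 genotypes and both times, or 18 libraries of 50000 cells. In fast-ATAC-Seq, the Tn5 transposase cuts accessible DNA and tags it for sequencing. The deposited list pools all 18 libraries into 69499 open regions, given by position alone. It therefore holds no value for a genotype, a time, or a replicate, and the depth of the libraries is not known. Reads of replicates were merged before peaks were called, so a listed region may be closed in some libraries. Ranges printed after a share of genes or regions are 95% Wilson intervals, which cover counting error only, and no test of a difference was run.

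Ribosomes in the cytosol consist of a large and a small subunit, each built of ribosomal RNA and many proteins. The genes of these proteins are scattered over the chromosomes and are used in nearly every cell, and their products are needed in similar amounts. Their mRNAs typically begin with an unbroken run of pyrimidines, the 5′ terminal oligopyrimidine (TOP) tract, through which mTOR signaling adjusts their translation to nutrients. Their introns often hold small nucleolar RNAs (snoRNAs), which guide the modification of ribosomal RNA. Reverse-transcribed copies of their mRNAs have left many intronless copies in mammalian genomes.

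The starts of the P-stalk genes and Rpsa, and of members with long pyrimidine runs, are shown as GENCODE annotates them, which is not a measured start of transcription. Each sequence below runs from 50 bases before the annotated first base to 20 bases from it on, on the strand of the gene, in NCBIM37. Capitals mark the longest run of C or T that touches the 21 bases centered on the first base.
Rplp0 (chr5:116009426-116009495, plus strand): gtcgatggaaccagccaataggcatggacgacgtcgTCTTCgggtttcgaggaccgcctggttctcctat
Rplp1 (chr9:61762326-61762395, minus strand): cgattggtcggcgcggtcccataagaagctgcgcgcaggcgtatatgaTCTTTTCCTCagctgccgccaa
Rplp2 (chr7:148633219-148633288, plus strand): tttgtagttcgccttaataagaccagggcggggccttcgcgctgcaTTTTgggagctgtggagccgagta
Rpsa (chr9:120036834-120036903, plus strand): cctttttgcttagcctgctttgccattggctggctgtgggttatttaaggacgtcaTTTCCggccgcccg
Rpl14 (chr9:120480582-120480651, plus strand): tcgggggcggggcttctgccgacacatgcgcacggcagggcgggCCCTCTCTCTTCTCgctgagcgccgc
Rpl26 (chr11:68715035-68715104, plus strand): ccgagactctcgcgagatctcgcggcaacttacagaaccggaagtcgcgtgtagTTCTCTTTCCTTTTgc
Rpl4 (chr9:64021144-64021213, plus strand): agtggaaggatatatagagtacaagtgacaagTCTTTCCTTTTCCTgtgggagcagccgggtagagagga
Rps25 (chr9:44215747-44215816, plus strand): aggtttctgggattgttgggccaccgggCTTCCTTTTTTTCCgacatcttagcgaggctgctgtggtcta
In Rpl14, the run of 14 bases began 6 bases before the first base, and in Rpl26 the run of 14 began 4 bases after it. In Rpl4 and Rps25, the runs of 14 began 18 and 22 bases before the first base and ended before it.

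An open region lay at the start of nearly all members. A start was counted as open when the midpoint of a region was within 1 kb of any annotated transcription start site (TSS) of the gene. This held for 77 of 79 members (97.5%, 91.2% to 99.3%), for 64.0% of all multi-exon coding genes, and for 87.2% of those with a CpG-rich start. All 39 large-subunit genes, all 30 small-subunit genes, and the 3 P-stalk genes had an open start, as did 4 of 6 paralogs and Rps19bp1. The members without one were Rpl39l and Rpl3l. Rpl3l, a paralog of Rpl3 known from striated muscle, had the midpoint of its nearest region at -3325.5 bp from the first base, or upstream (chr17:24861315-24861582). Rpl39l, a paralog of Rpl39 known from the testis, had it 22674 bp downstream (chr16:10192888-10193098). Rpl3l had a CpG-poor start and Rpl39l a CpG-rich one. The 4 paralogs with open starts were Rpl7l1, Rpl22l1, Rpl36al, and Rps27l.

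Other gene groups that most cells use had shares of the same size. An open start was found for 75 of 76 mitochondrial ribosomal protein genes (98.7%), 60 of 63 translation factor genes (95.2%), and 38 of 40 proteasome subunit genes (95%), and the intervals of these groups overlapped that of the members. Ribosome components with other symbols were open as well. Fau, which encodes a ubiquitin-like protein fused to a small-subunit protein, had 1 region, with its midpoint 14 bp downstream of the first base. Gnb2l1, which encodes the ribosome-bound scaffold RACK1, had 3 regions, the nearest at 41 bp. On the X chromosome, which the rule leaves out, Rpl10 had 3 regions, Rpl39 had 2, and Rpl36a and Rps4x had 1 each.

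**Figure D1:**
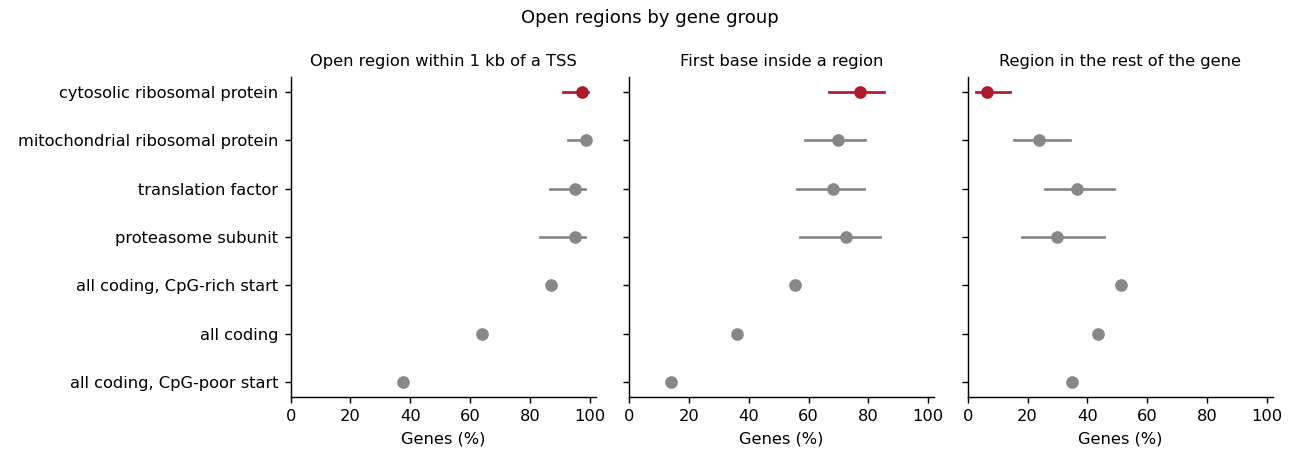
Share of genes (x axis, %) with an open region within 1 kb of a TSS (left), with the annotated first base inside a region (middle), and with a region in the rest of the gene (right), for 7 gene groups; points are shares and lines 95% Wilson intervals, which are narrower than the points for the groups of all coding genes. The ribosomal protein genes (red) stand at 97.5%, 77.2%, and 6.33%.

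The first base itself was usually inside a region. This was so for 61 of 79 members (77.2%, 66.8% to 85.1%) and for 36.0% of all multi-exon coding genes. Part of this follows from the open starts, so the share was also taken among open starts, where it was 79.2% of 77 members and 56.2% of 11965 genes. With CpG-rich open starts alone it was 82.6% of 69 members and 63.4% of 8666 genes. In the related groups it was 69.7% for mitochondrial ribosomal protein genes, 68.3% for translation factors, and 72.5% for proteasome subunits, with intervals that overlapped that of the members. The midpoint of the nearest region lay a median of 20.5 bp upstream of the first base in the 77 open members (quartiles, 73 bp upstream to 47.5 bp downstream). Without regard to direction, the median distance was 57.5 bp, and 88.5 bp over all genes with an open start. For 58 of 77 members (75.3%, 64.6% to 83.6%) the midpoint was within 100 bp of the first base, and for 55.0% of those genes.

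The order of the members by this distance shows how little most of them differed. Rpl29 had a midpoint 0.5 bp from its first base, Rpl23 at 5 bp downstream, and Rpl37a at 6.5 bp upstream, all 3 being large-subunit genes. Among the stalk genes, whose products form the arm that recruits translation factors, the midpoint was 45.5 bp upstream in Rplp0, 44 bp upstream in Rplp2, and 102.5 bp upstream in Rplp1. Rpsa, also known as the laminin receptor gene, had it 45 bp upstream. The region of Rplp1 ended before its first base, whereas those of Rplp0, Rplp2, and Rpsa covered it. At the other end, the midpoint was 1946 bp downstream in Rps2, 1285 bp downstream in Rps10, 332 bp downstream in Rpl35, and 255 bp upstream in Rps23.

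**Figure D2:**
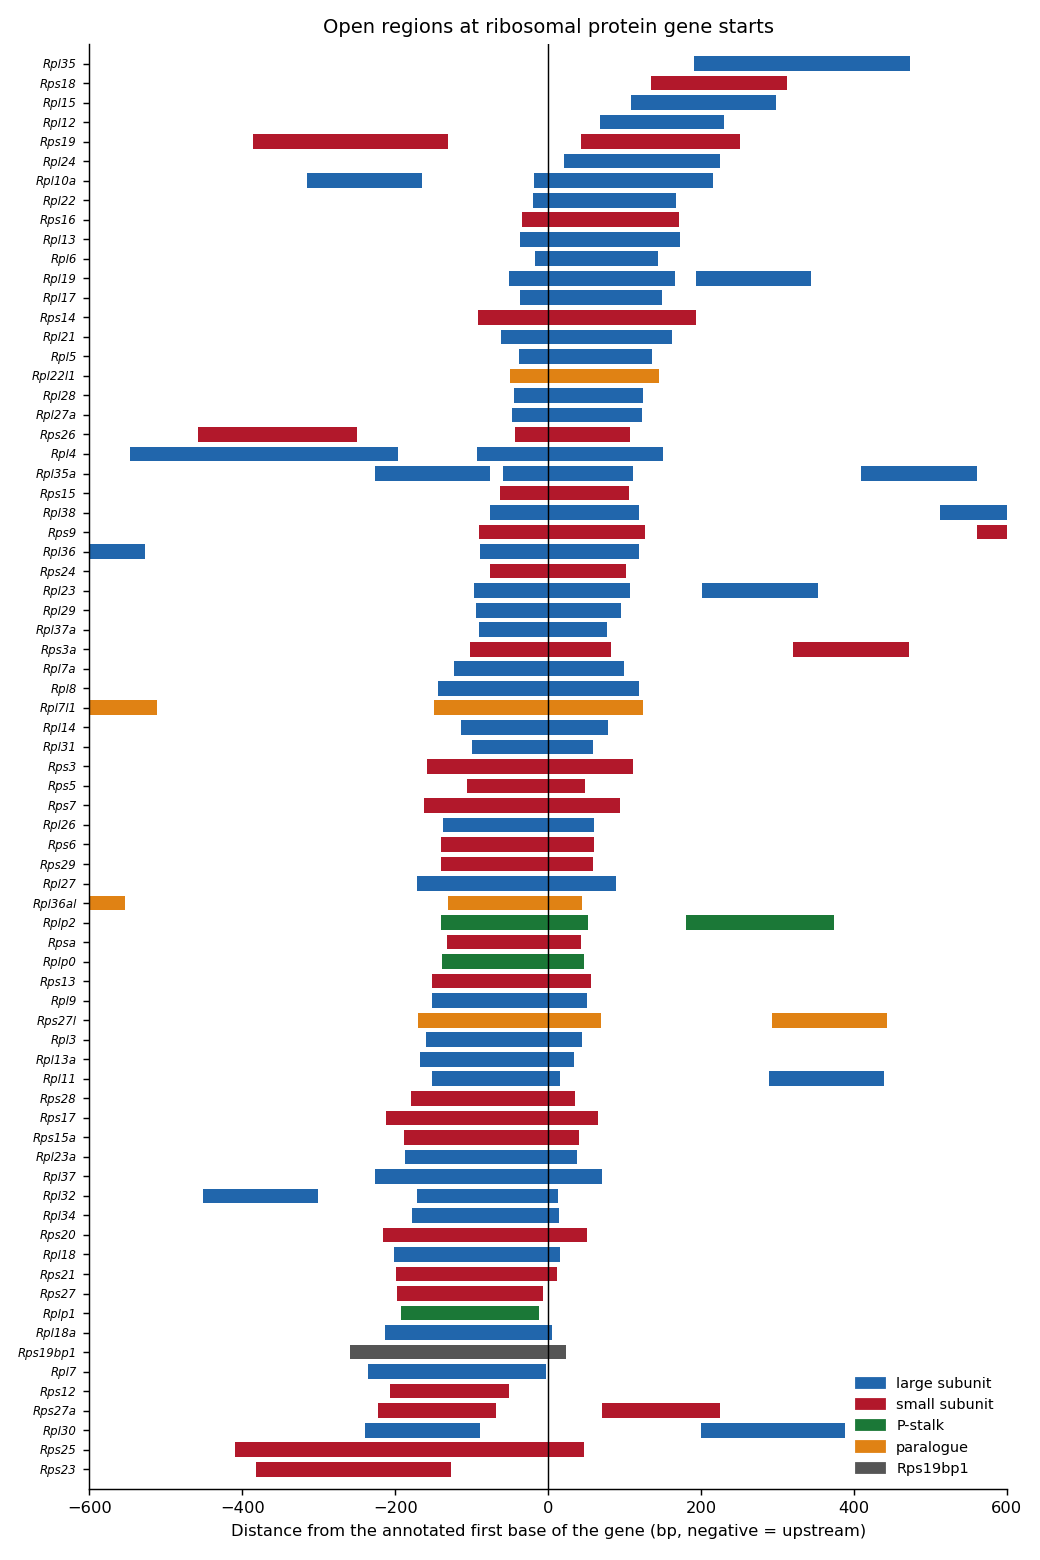
Open regions (bars) within 600 bp of the annotated first base (vertical line) of members with an open start, 1 row per gene, ordered by the distance of the nearest midpoint; the x axis is the distance in bp, negative upstream, and colors mark the subunit. The bars of most rows cross the line, and some members are not drawn, among them Rps10 and Rps2, whose nearest midpoints were 1285 and 1946 bp away.

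The 3 largest distances among open members, those of Rps2, Rps10, and Rpl35, came with first bases that the 2 annotations GENCODE and RefSeq place differently. RefSeq promoter sequences were available for 58 members, and each of these had a start placed on NCBIM37 by an exact match. Where RefSeq gave several starts, the most upstream was taken. It equaled the GENCODE first base in 23 of the 58 and lay more than 100 bp downstream in 10. In Rps2, the RefSeq start was 1947 bp downstream of the first base, 1 bp from the midpoint of the region at chr17:24856912-24857102. In Rpl35, it was 493 bp downstream, and in Rps10, it was 1385 bp downstream, with the region midpoint of Rps10 lying 100 bp upstream of it. In Rpl13a, GENCODE starts the gene at the same base as Flt3l, a cytokine gene, and the RefSeq start was 7672 bp farther on, with a region midpoint at -244.5 bp from it, or upstream. Rpl18 and Rplp2 each had a region at both starts. In Rplp2, the second region had its midpoint 4 bp upstream of the RefSeq start, and in Rpl18 the midpoint of the third was 20.5 bp upstream. Over the 58 members, 45 RefSeq starts (77.6%, 65.3% to 86.4%) were inside a region, and 39.6% of 12609 placed RefSeq starts of all genes.

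Altogether 106 regions lay at member starts, and no region was shared by 2 members. Of the members, 53 had 1 region, 20 had 2, 3 had 3, and 1 had 4. At least 2 regions were found at 24 of 79 starts (30.4%, 21.3% to 41.2%) and at 30.9% of all genes, although far fewer of those were open. Among open starts the shares were 31.2% of members and 48.2% of genes. Rpl10a, a large-subunit gene, had the most regions, with midpoints 740 and 240 bp upstream and 98.5 and 683 bp downstream of the first base. In Rpl24, the midpoints of the 3 regions were 122.5, 7510.5, and 8357.5 bp downstream of the first base, near TSSs of several transcripts, and in Rpl35a, all 3 lay within 485 bp of it. Midpoints fell in an exon of the member for 38 regions, in an intron for 11, and outside the gene for 57. This split was not made for the regions of all genes, so whether it is usual cannot be said.

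The regions at member starts were of ordinary width. Their median was 193 bp (quartiles 168.25 to 223.5, range 151 to 457, n = 106), and that of the 18870 regions at starts of all multi-exon coding genes was 189 bp. Widths differed at the lower end, where regions of exactly 151 bp, the commonest width in the list, made up 13.2% (8.03% to 21%) of the member regions and 29.2% of the regions of all genes. The share of at least 200 bp was 45.3% and 42.1%. The widest region at each open start had a median of 205 bp in members and 213 bp in all genes. Rps25 had the widest at 457 bp (chr9:44215388-44215844), followed by Rpl4 at 350 bp. The regions of Rps25 and Rpl4 also lay within 1 kb of the start of a neighbor, Trappc4 and Zwilch. At 151 bp, the lower limit at starts, there were 14 member regions, of which only those of Rpl30 and Rps26 were nearest to the first base. The region nearest to the first base had a median of 202 bp in open members and 201 bp in all open genes. Open members also had at least 2 regions less often (31.2% against 48.2%). The part of this in the difference at 151 bp was not tested.

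**Figure D3:**
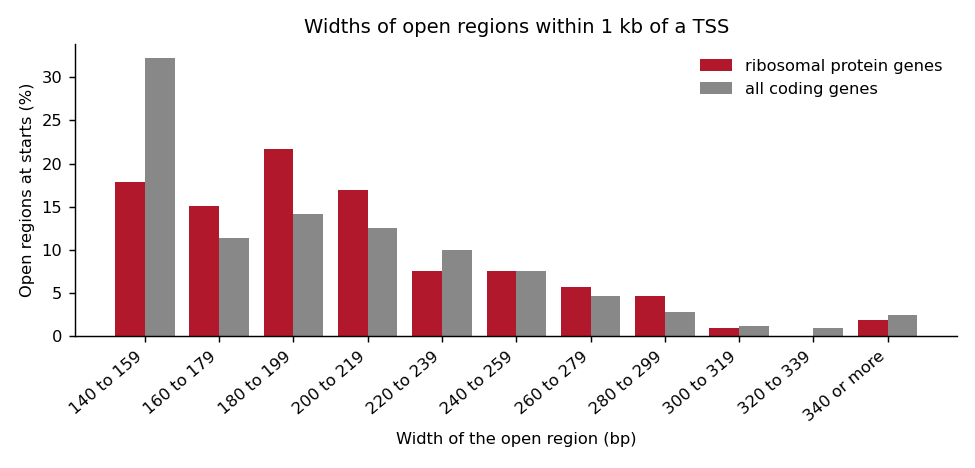
Share of the open regions within 1 kb of a TSS (y axis, %) in each class of width (x axis, bp) for members (red, 106 regions) and all multi-exon coding genes (gray, 18870 regions). The narrowest class holds 17.9% of the member regions and 32.2% of those of all genes.

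An opposite-strand coding TSS lay within 1 kb of the first base in 14 of 79 members (17.7%, 10.9% to 27.6%) and in 12.4% of all genes, a share within this interval. Of the 106 regions, 22 at 15 members were also within 1 kb of a TSS of another coding gene. The same count was not made for all genes, so whether it is usual cannot be said. The closest pairs on opposite strands were Rps28 with Ndufa7, a complex I subunit gene, 29 bp apart, Rpl12 with Lrsam1 at 33 bp, Rps27 with Rab13 at 44 bp, and Rpl9 with Lias, a lipoic acid synthase gene, at 54 bp. Rpl36al with Mgat2, Rps18 with Vps52, Rpl7a with Med22, and Rpl15 with Nkiras1 followed, at 75 to 127 bp. An open region there cannot be assigned to either gene. Chromosome 7 held 14 members, chromosome 17 held 8, and chromosome 19 none, and all genes were not counted by chromosome.

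Away from their starts, few members held a region. Outside the windows of 1 kb around each TSS, 5 of 79 members had a region (6.33%, 2.73% to 14%), and 43.6% of all multi-exon coding genes did. The members are short genes, with a median length of 3431 bp against 19931 bp, and had a median of 1591 bp outside these windows against 17132 bp. Per length, the members held 2.98 regions for each 100 kb outside the windows (6 regions in 201418 bp), and all genes 2.89. Coding genes no longer than 6630.6 bp, the 90th percentile of member lengths, held 5.38. The density of the members was not limited to such lengths, and the longer Rpl11 and Rpl24 held 2 and 1 of its 6 regions. A region outside the windows was found in 10.3% of the 3911 coding genes no longer than 6630.6 bp, and 4.23% of the 71 members of such a length (1.45% to 11.7%). All 6 regions had their midpoints in introns. Rpl11, which restrains MDM2 when ribosome assembly fails, had 2 of them, 18773 and 22269.5 bp downstream of its first base, in a gene annotated over 25164 bp. Rpl24, annotated over 42639 bp, had 1 at 8866 bp, Rpl34 had 1 at 3124 bp, Rpl3 had 1 at 2562 bp, and Rps7 had 1 at 3421 bp.

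The intronless copies of these genes mostly had no open region. Of 135 single-exon Rpl and Rps copies, which the rule leaves out, 6 (4.44%, 2.05% to 9.36%) had a region within 1 kb of their start, namely 2 of 57 annotated as coding and 4 of 78 pseudogenes. This share was 2.80% among 2963 single-exon pseudogenes of any symbol. No copy was itself overlapped by a region, and 0 of 135 allows a share of up to 2.77%. Such copies can resemble the mRNAs of their parents, and how alike the sequences are was not measured. How the pipeline was set to treat reads that match several places is not given in the sources used here, so the part of mappability in the low share was not tested.

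Most member starts were CpG-rich, defined as a GC fraction of at least 0.5 and a ratio of observed to expected CpG of at least 0.6 over 250 bp on either side. This held for 70 of 79 members (88.6%, 79.7% to 93.9%) and 53.2% of all genes. In the 100 bp on either side of the first base, the median GC content was 59.7% in members and 60.7% in all genes, while the median ratio of CpG was 0.946 and 0.675. The 9 members with CpG-poor starts included Rps2, Rps10, Rpl13a, and Rpl35, whose annotated first base lay far from the RefSeq start, and Rpl4, Rpl7, Rpl27, Rps9, and Rpl3l.

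Short motifs were searched in the same window on both strands, as letters only. None of the motifs contains another. A match is a description and does not show that a factor was bound. CCGGAAG, the core of sites for ETS factors such as GABP, occurred in 24 of 79 members (30.4%, 21.3% to 41.2%) and in 10.5% of all multi-exon coding genes. To set like with like, the shares were taken among CpG-rich open starts, where they were 33.3% of 69 members (23.4% to 45.1%) and 18.8% of 8666 genes. AAGATGG, the core of YY1 sites, occurred in 12 of 79 members (15.2%) and 5.21% of all genes, and in 17.4% and 6.77% of CpG-rich open starts. Since these letters contain ATG, they can also be met at a start codon, and this was not tested. GGGCGG, the box of Sp1, occurred in 48.1% of members and 44.6% of all genes, but in 52.2% (40.6% to 63.5%) and 68.9% of CpG-rich open starts. In the related groups, the ETS letters occurred in 39.5% of mitochondrial ribosomal protein genes, 30.0% of proteasome subunit genes, and 25.4% of translation factor genes. The YY1 letters occurred in 15.8%, 22.5%, and 7.94% of these groups, and the Sp1 letters in 46.1%, 55%, and 68.3%, against 48.1% of members.

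By subunit, the ETS letters were present in 12 of 39 large-subunit genes, 9 of 30 small-subunit genes, and 1 of 3 stalk genes, and the YY1 letters in 5, 6, and 0. Rpl37 had both. Large-subunit genes with the ETS letters included Rpl11, Rpl26, Rpl29, and Rpl32, and small-subunit genes included Rps6, the substrate of the S6 kinases, Rps14, and Rps25. The letters of NRF1 (GCGCATGC) were found in 3 members, Rpl5, Rpl10a, and Rpl37a (3.80% of members, 2.91% of all genes). Among CpG-rich open starts the shares were 4.35% and 5.29%. The letters of AP-1 (TGACTCA or TGAGTCA) were found within 100 bp of the first base in Rpl22 alone (1.27% of members, 2.72% of all genes). Within 250 bp on either side, they were found in 6.33% of members and 6.15% of all genes. No member had the TATA letters (TATAAA) on its own strand within 50 bp before the first base, which allows a share of up to 4.64%, and 2.95% of all genes did. In the open region nearest to the first base, 25 of 77 members (32.5%) and 15.6% of genes with open starts held the ETS letters. The YY1 letters were present there in 10.4% and 5.25%, and the Sp1 letters in 50.6% and 56.5%. The NRF1 letters were present in 5.19% and 4.48%, the members being Rpl5, Rpl10a, Rpl23a, and Rpl37a. The AP-1 letters were present in 1.30% and 2.53%, with Rpl9 as the only member, and not in the region of Rpl22.

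**Figure D4:**
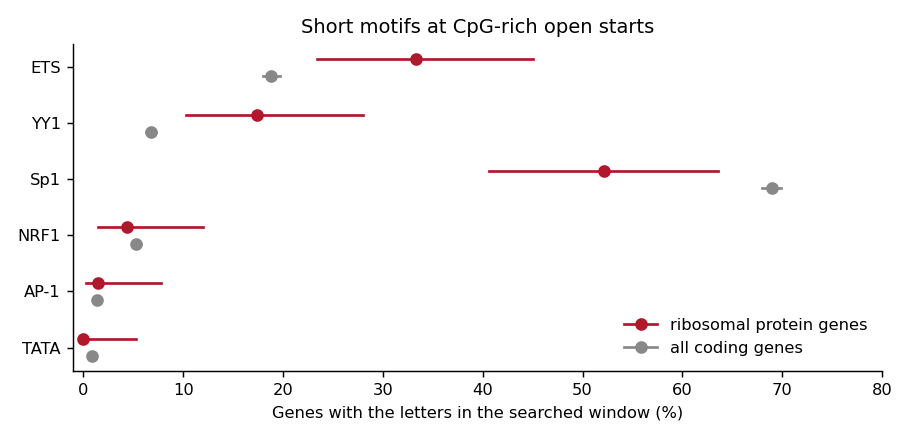
Share of genes (x axis, %) with the letters of each motif around the first base, among CpG-rich open starts of members (red, n = 69) and of all multi-exon coding genes (gray, n = 8666); points are shares and lines 95% Wilson intervals. The ETS and YY1 shares of the members lie above those of all genes, at 33.3% and 17.4%, and the Sp1 share lies below, at 52.2%.

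The nearest regions of Rplp1 and Rps21 show where these letters lie, in capitals, on the strand of the gene in NCBIM37. They were chosen after their values were seen, as regions that hold the ETS letters and lie almost wholly before the first base.
Rplp1 (chr9:61762358-61762537, minus strand): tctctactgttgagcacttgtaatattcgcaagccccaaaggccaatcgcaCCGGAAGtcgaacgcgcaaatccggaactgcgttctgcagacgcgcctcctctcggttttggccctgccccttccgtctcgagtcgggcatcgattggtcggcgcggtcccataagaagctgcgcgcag
Rps21 (chr2:179991884-179992093, plus strand): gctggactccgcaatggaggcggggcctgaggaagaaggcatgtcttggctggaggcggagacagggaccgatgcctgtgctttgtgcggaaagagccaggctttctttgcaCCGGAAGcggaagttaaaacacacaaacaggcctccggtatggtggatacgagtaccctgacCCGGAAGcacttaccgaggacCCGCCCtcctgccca
The region of Rplp1 held the ETS letters at 1 place, more than 100 bp before the first base. Rplp1 was therefore not counted among the members with these letters around the first base. The region of Rps21 held the ETS letters at 2 places and the Sp1 letters at 1, the latter on the opposite strand.

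A pyrimidine run of at least 8 bases touched the 21 bases centered on the first base in 23 of 79 members (29.1%, 20.3% to 39.9%) and in 13.7% of all multi-exon coding genes. The median of the longest run was 5 bases in members and 4 in all genes. Rpl32 had the longest run, with 17 bases, followed by Rpl4, Rpl14, Rpl26, and Rps25 with 14. The share was 30.8% in the large subunit and 30.0% in the small subunit. It was 22.2% for translation factors, 11.8% for mitochondrial ribosomal protein genes, and 5% for proteasome subunits.

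The runs depended on the annotated start. Of the 58 members with a RefSeq start, 26 (44.8%, 32.7% to 57.5%) had a run of at least 8 bases there, compared with 16 of the same 58 at the GENCODE first base. The share over all genes stayed near 13.7%. A counted run need only touch the 21 bases centered on the start, so it may not lie at the 5′ end of the mRNA. The runs of Rpl4, Rps25, Rpl31, Rpl13, Rps15a, Rps27l, and Rpl34 ended before the RefSeq start, and that of Rps12 began 8 bases after it. Of the 58, 14 had such a run at the RefSeq start only and 4 at the GENCODE first base only. The latter were Rpl26 with 14 bases, where the RefSeq start, 17 bp upstream, had 3, and Rpl5, Rps16, and Rpl27 with 9, 9, and 8 bases, against 3, 5, and 5. The median of the longest run was 7 bases for these members and 4 for all genes. The sequences below are RefSeq's, in GRCm38.p6, from 14 bases before the RefSeq start to 16 bases from it on, with the run in capitals. They are the 4 longest runs, and Rps10 and Rplp2, which had runs of 3 and 4 bases at the GENCODE first base.
Rpl7a (chr2:26910793-26910822, plus strand): TTCCCTCTTCTTTCTTTCTCCagcagccga
Rpl27a (chr7:109519181-109519210, plus strand): acttcgtgagCTCCTCCCTTTTCCCTTTCT
Rpl35 (chr2:39005116-39005145, minus strand): ggccccgCCCTTTCCTCTTTCTCTCgaacc
Rpl15 (chr14:18270971-18271000, minus strand): tgggagaaagCCTTCTTCCTTTCCTCTggc
Rps10 (chr17:27635229-27635258, minus strand): cgccgcgcacgCCCCTTCCTTTCCagcctc
Rplp2 (chr7:141447637-141447666, plus strand): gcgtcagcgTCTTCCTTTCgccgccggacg
The runs of Rpl7a, Rpl27a, Rpl35, and Rpl15 had 21, 20, 18, and 17 bases, that of Rps10 had 13, and that of Rplp2 had 10. In Rplp2, the run lay in the second open region and not in the first.

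**Figure D5:**
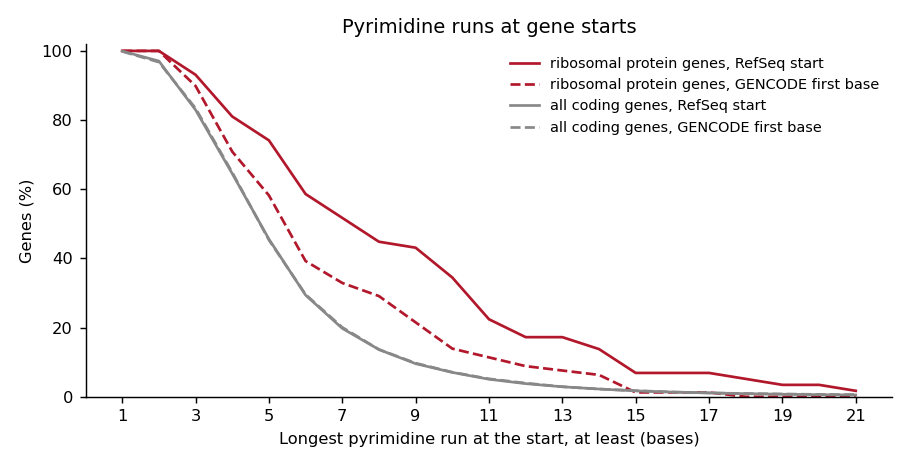
Share of genes (y axis, %) whose longest pyrimidine run at the start has at least the number of bases on the x axis, for members (red) and all multi-exon coding genes (gray), at RefSeq starts (solid) and GENCODE first bases (dashed). At 8 bases the members stand at 44.8% and 29.1%, and both gray lines at 13.7%.

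An annotated snoRNA lay within 28 of 79 members (35.4%, 25.8% to 46.4%) and within 1.35% of all multi-exon coding genes. The 28 hosts held 56 snoRNAs. Rpl4 held 5, and Rpl7a and Rpl13a held 4 each. Hosts were 17 of 39 large-subunit genes, 10 of 30 small-subunit genes, and Rplp2 of the stalk, and no paralog was a host. Among related groups, 9 of 63 translation factor genes were hosts, and 0 of 76 mitochondrial ribosomal protein genes.

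The cells that gave these regions cannot be told from the list. Macrophage markers had an open start for 7 of 11 annotated genes, among them Cd68, Emr1, Clec4f, Timd4, and C1qa, but not Csf1r, Vsig4, Marco, and Lyz2. This macrophage share, 63.6%, was near the 64.0% of all multi-exon coding genes with an open start. Hepatocyte markers had an open start for 11 of 12 (91.7%), with Alb and Apoa1, and endothelial markers for 10 of 12 (83.3%). Stellate cell markers had one for 3 of 12 (25%), lymphocyte markers for 3 of 11 (27.3%), and markers of neurons and muscle for 4 of 12 (33.3%). Since ribosomal protein genes are used in all of these cells, the part of other cells in the open starts was not tested.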

How the data were processed

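Fast-ATAC-Seq was performed on LMs in 18 libraries. The authors ran the ATAC-Seq pipeline of the Kundaje laboratory (atac_dnase_pipelines), trimmed adapters, used Bowtie to align reads to mm9, pooled the alignments of replicates, and called peaks, and HOMER is named for read counts. The settings of this pipeline, the peak threshold, and the rule for joining peaks into the list are not given in the sources used here. The deposited list holds the positions of 69499 regions, with no count, signal, or score, so depth and replicate error are unknown. All regions fitted within the NCBIM37 chromosome lengths (0 exceptions).

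Regions were compared with GENCODE vM1, and sequences were read from NCBIM37. RefSeq promoters (GRCm38.p6, 250 bases before to 50 after the start) were available for 58 of 79 members and 12707 of 18685 genes. They were placed by a unique exact match within 20 kb of the gene, which succeeded for all 58 members and for 12609 genes. The members and lists were chosen with earlier results of these data known. Genes were named by rule: those without an open start, the stalk genes and Rpsa, the extremes of region number, width, and distance, those with regions in the rest of the gene, and neighbors. Others named for a motif, a run, or a snoRNA are examples. No test fits a list without samples, and counts are given with Wilson intervals. The search steps were tested on simulated data. Python 3.11.15, NumPy, pysam, and matplotlib were used. The alternatives tried were other distances, starts, widths, and windows. Some items that the rules would name are not reported here.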

Additional observations from a re-analysis of the deposited data

How the results depend on the processing

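No paired analysis was possible because no library has a value of its own in the deposited list. Of 65 values under an alternative, 52 were counted as unchanged. Shares had to stay within the interval of the reported value, and counts of regions within a set fold limit. The medians of width and distance had to stay within the standard deviation over single regions or genes (49.3 and 282 bp). A median can hardly leave so wide a band, so the 7 values for width and 4 for distance that stayed within it show little. The intervals of the shares are wide as well. The YY1 share counted as unchanged from 10.4% to 24.1%, and the NRF1 share from 3.80% to 7.59%. With regions of at least 200 bp alone, 54.4% of members and 39.1% of all genes had an open start, 48 regions lay at member starts, and 1.27% of members (19.6% of all genes) had a region in the rest of the gene. Without the paralogs and Rps19bp1, 100% of 72 members were open. For all genes the open share was 58.5% within 250 bp, 66.9% within 2 kb, 59.8% from the first base only, and 63.0% from TSSs of coding transcripts. In a window of 250 bp on either side, 75.9% of members held the Sp1 letters (58.0% of all genes). A pyrimidine run of at least 6 bases, also counted as unchanged, was present in 39.2% of members and 29.6% of all genes, against 29.1% and 13.7% for 8 bases. With 8 bases, a pyrimidine run was present at any coding start in 55.7% of members and 23.5% of all genes, and members have more annotated TSSs (median 4 against 2). At RefSeq starts, an alternative added after the data were seen, it was 44.8%, and the AP-1 letters were found in 0% of members. The median width of member regions was 192 to 231 bp, the highest being set by the filter of at least 200 bp itself, and the median distance was -41.5 to -19 bp. Depth limits all of this, since a start without a region may only be below the unknown threshold.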
